A study of Mus musculus with 4 samples.

Results

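The 10 genes described here mark Cajal-Retzius cells or belong to the Ebf family of transcription factors that these cells use: Reln, Trp73, Lhx1, Lhx5, Calb2, Ebf1, Ebf2, Ebf3, Ndnf and Car10. They were taken by symbol, and all 10 were found among the 32681 genes of the deposited table. The study measured RNA in primary neuron cultures from the neocortex of wild-type CD-1 mouse embryos at embryonic day 13 (E13). The control shRNA group is 2 cultures that received a control short hairpin RNA by transfection, and the DcpS shRNA group is 2 that received a hairpin against DcpS. DcpS is a hydrolase that breaks down the cap structure remaining once an mRNA has been degraded from its 3′ end. All cultures were grown in Neurobasal medium with B27 supplement. The labels name no promoter for the hairpin, and whether transfected cells were selected is not stated.

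Cajal-Retzius cells are early-born neurons of the marginal zone, the outermost layer of the developing cortex. They arise at the borders of the cortical sheet, including the cortical hem and the septum, and spread below the meninges. They secrete Reelin, a large extracellular glycoprotein that binds the lipoprotein receptors Vldlr and Lrp8 on migrating neurons and leads to phosphorylation of the adaptor Dab1, which is needed for the cortical layers to form in order. The p53 relative encoded by Trp73, the LIM homeodomain factors Lhx1 and Lhx5, and the helix-loop-helix factors of the Ebf family are found in their nuclei, and the calcium-binding protein calretinin, encoded by Calb2, in their cytoplasm. Most of these genes are also used elsewhere. Reln, Calb2 and Ndnf are expressed by classes of GABAergic interneurons, and Ebf1 by pericytes and by projection neurons of the striatum.

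With DcpS shRNA, Ebf1 fell to 42.6% of its control level, and the other 9 genes did not pass the test. Reln was at 93.3% and Trp73 at 89.0% of control, while Ebf3 was at 126% and Ebf2 at 141%. The background for these counts is that 5.79% of the 18110 genes tested passed in either direction, 3.65% lower and 2.14% higher (limma, Benjamini-Hochberg adjusted p under 0.05). A share of 1 in 10 members rests on a single gene, and nothing is read from it about the set. The members' median log2 fold change was −0.11 and that of all genes tested 0.00, with 8 of 10 members below 0. Fold changes are DcpS shRNA minus control shRNA on the scale log2(normalised read count + 1), which understates the change of low genes. In bulk RNA, fewer cells of a type and less RNA per cell cannot be told apart.

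The libraries held 17754768 to 21793685 reads. Dcps, the targeted gene, had normalised read counts of 499.8 and 506.6 in the controls against 114.5 and 119.6 with DcpS shRNA, which is 23.3% of control (log2 fold change −2.10, SE 0.11; limma, Benjamini-Hochberg adjusted p 1.52e-08). Read counts varied beyond sampling noise within each group (chi-square divided by its degrees of freedom, 2.04 for the controls, 3.73 for DcpS shRNA). Whether the cultures were independent preparations is not stated, and the p-values therefore reflect the spread between these libraries alone, which may be technical. Neuronal genes were present at high levels. The 14 genes listed for cortical excitatory neurons include the general neuronal genes Dcx, Map2, Tubb3 and Rbfox3. Their summed normalised count was 102331 and 100276 in the controls against 97927 and 95390 with DcpS shRNA. Of this, Dcx alone had 26693 and 25957 in the controls against 24612 and 22989 with DcpS shRNA.

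The 3′ UTR sites below are shown because Ebf1 and Ebf3 both hold a word that is also in the Dcps transcript. The 7-base words ACGTGCA and CACGTGC came from an earlier analysis of these libraries. The hairpin's sequence is not given in the sources used here. Each site is written from 5′ to 3′ on the transcript strand, with the matched bases in capitals and 10 bases on each side (GENCODE M21 transcripts, GRCm38). The sites lie at chr9:35124746-35124773 on the minus strand (Dcps), chr11:45007533-45007559 on the plus strand (Ebf1) and chr7:137193941-137193968 on the minus strand (Ebf3).
Dcps: ctatcacctgCACGTGCAtttcacagct
Ebf1: atctgttagcCACGTGCtgtgacgtga
Ebf3: aaaaagagctCACGTGCAcattagcaag

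Dcps and Ebf3 share the 8-base run that holds both words, and Ebf1 holds CACGTGC alone. In Ebf1 the site is in 1 of 3 annotated 3′ UTRs, the longest, of 3343 bases. In Ebf3 it is in 2 of 6, of 2650 and 2698 bases, and in Dcps in 1 of 2. The other 8 members have neither word in any annotated 3′ UTR. Of 13709 tested genes with a 3′ UTR, 8.0% (1097 genes) hold at least 1 of the words on the transcript strand. The share was 33.1% among the 646 such genes called lower and 6.25% among the 368 called higher, given as a description with no test, since the words were chosen on these libraries. The called sets were not matched for 3′ UTR length. Among genes whose longest 3′ UTR is within 25% of the length of that of Ebf1 the share was 15.4%, and for Ebf3 12.5%. Ebf1 was lower, and Ebf3, which was not called, had higher values in both DcpS shRNA libraries. A part of the words in either difference was not tested. Which 3′ UTR the cultures used was not measured. Among the tested genes of the other lists, Acta2, Zic4 and Pik3r1, called lower, hold a word. So do Crkl, Bmp4, Lhx2, Ackr3, Gad2, Adarb2, Bcl11b, Sox5 and Cux1, which were not called.

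**Figure D1:**
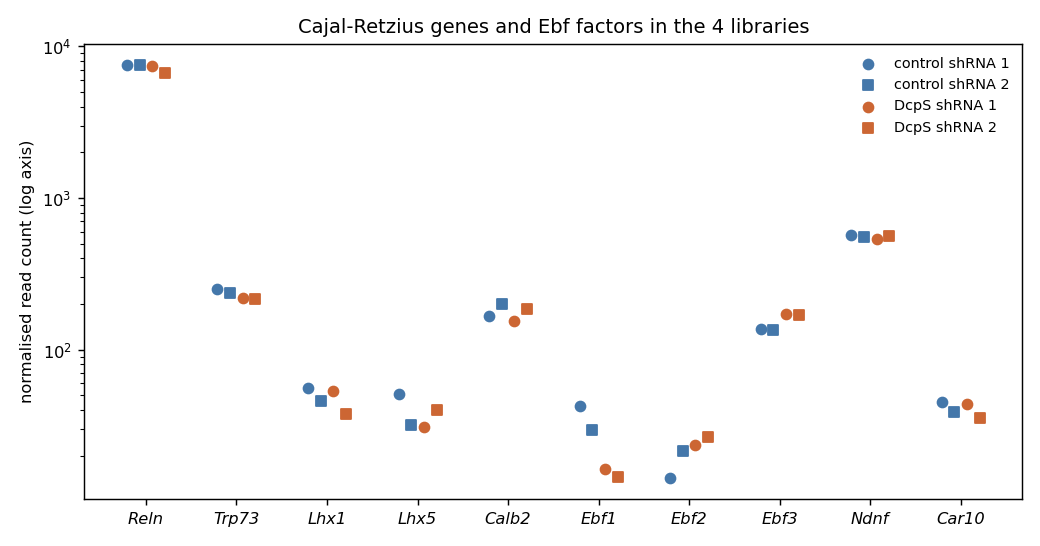
Normalised read counts of the 10 genes (log axis) in control shRNA (blue) and DcpS shRNA (orange) libraries, with circles for replicate 1 and squares for replicate 2. Reln stands above the other genes at 6636 to 7551, and the groups of Ebf1, 14.5 and 16.4 against 29.7 and 42.8, do not overlap.

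Levels between genes were compared per kilobase of merged exons, as normalised reads averaged over the 4 libraries. Reln was highest, with a mean of 307 per kilobase, above 78.2% of the tested genes with a length. Calb2 followed at 101, Ndnf at 55.0 and Trp73 at 41.6. The order went on with Ebf3 at 16.6, Lhx5 at 14.3, Lhx1 at 11.9, Car10 at 6.45, Ebf2 at 3.11 and Ebf1 at 2.65 per kilobase. In that order Ebf3 and Lhx5, Lhx5 and Lhx1, and Ebf2 and Ebf1 overlapped in their library values, and the other neighbours did not. Ebf1 came last by this mean, higher than 1.84% of tested genes, but the mean includes the DcpS shRNA libraries in which it was lower. In the controls alone Ebf1 had 4.38 and 3.05 per kilobase and Ebf2 2.06 and 3.11, which overlap.

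Reln encodes the secreted Reelin protein (ENSMUSG00000042453.14, chromosome 5, 21884454 to 22344702, minus strand, GRCm38). Its normalised read counts were 7551 and 7534 in the controls against 7437 and 6636 with DcpS shRNA. The DcpS shRNA values lay below both controls, but the first of them by less than the distance between the DcpS shRNA libraries. The mean was 7542 ± 12.3 in the controls against 7036 ± 566 with DcpS shRNA (SD, n = 2 per group). The log2 fold change of Reln was −0.10 with 95% limits of −0.22 and 0.02 (limma, Benjamini-Hochberg adjusted p 0.361). Without DcpS shRNA 1 the log2 fold change was −0.18, and without DcpS shRNA 2 it was −0.02. These fits take their spread from the 2 controls, which lay close together.

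Trp73 encodes p73, a relative of p53 that Cajal-Retzius cells need for their survival (chromosome 4, 154056253 to 154140208, minus strand). Its counts were 252.7 and 234.8 in the controls against 218.1 and 215.7 with DcpS shRNA. Both DcpS shRNA values were lower than both controls. The log2 fold change was −0.17 with 95% limits of −0.40 and 0.06 (limma, Benjamini-Hochberg adjusted p 0.450).

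The LIM homeodomain factors were low and varied between libraries of a group. Lhx1 (chromosome 11, 84518284 to 84525535, minus strand) had counts of 56.1 and 46.1 in the controls against 53.6 and 38.0 with DcpS shRNA. Lhx5 (chromosome 5, 120431699 to 120441223, plus strand) had 51.3 and 31.8 in the controls against 30.9 and 40.2 with DcpS shRNA. The groups overlapped for both genes. Their log2 fold changes were −0.17 (95% limits −0.66 and 0.32) for Lhx1 and −0.19 (−0.76 and 0.38) for Lhx5. These limits are wide. Lhx1 had 34 to 59 reads a library and Lhx5 31 to 54.

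Calb2, which encodes calretinin (chromosome 8, 110137502 to 110168210, minus strand), had counts of 168.2 and 199.0 in the controls against 155.4 and 184.4 with DcpS shRNA. The groups overlapped, and the log2 fold change was −0.11 with 95% limits of −0.40 and 0.17 (limma, Benjamini-Hochberg adjusted p 0.726). Ndnf encodes a secreted neurotrophic protein (chromosome 6, 65671590 to 65712326, plus strand). Its counts of 573.9 and 556.9 in the controls against 536.1 and 557.6 with DcpS shRNA overlapped. Of the 10 members Ndnf had the log2 fold change nearest to 0, at −0.05 (95% limits −0.21 and 0.11). Car10 encodes a carbonic anhydrase-related protein without enzyme activity that binds neurexins (chromosome 11, 93098028 to 93601749, plus strand). Its counts were 45.6 and 39.0 in the controls against 43.6 and 35.8 with DcpS shRNA, also overlapping, with a log2 fold change of −0.09 (95% limits −0.58 and 0.40).

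**Figure D2:**
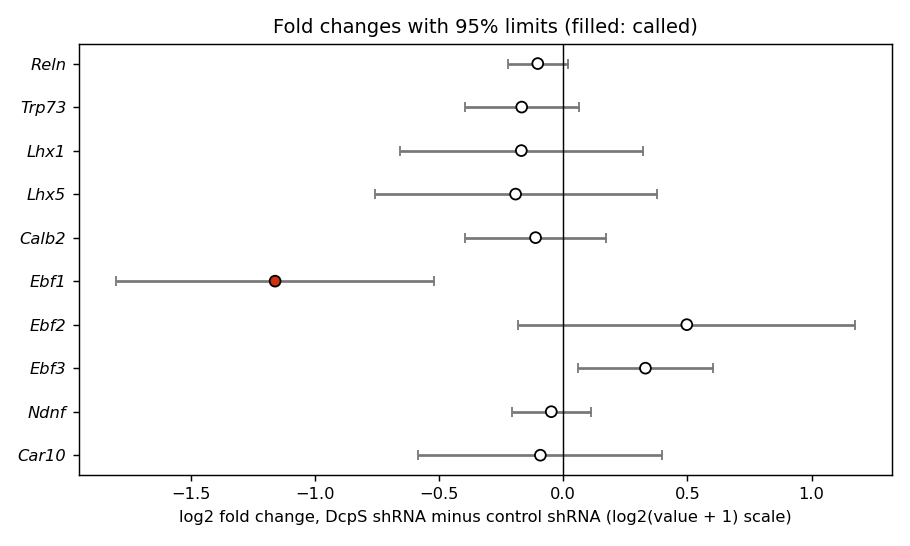
Log2 fold change of each gene, DcpS shRNA minus control shRNA, with 95% limits from limma as horizontal lines; the filled point is the gene past the adjusted threshold. Ebf1 lies at −1.16, Ebf3 at 0.33 has limits above 0 without passing the adjusted test, and the limits of the other 8 genes include 0.

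The Ebf genes had fold changes of opposite sign, and Ebf1 alone passed the test. Ebf1 (ENSMUSG00000057098.14, chromosome 11, 44617317 to 45008091, plus strand) had normalised read counts of 42.8 and 29.7 in the controls against 16.4 and 14.5 with DcpS shRNA. Both DcpS shRNA libraries were below both controls, and the control libraries differed from each other more than the DcpS shRNA libraries did. The mean was 36.2 ± 9.20 in the controls and 15.4 ± 1.29 with DcpS shRNA (SD, n = 2 per group), a log2 fold change of −1.16 (SE 0.30, 95% limits −1.80 and −0.52; limma, Benjamini-Hochberg adjusted p 0.0324). These values rest on few reads: 45 (exact Poisson 95% interval 32.8 to 60.2) and 29 (19.4 to 41.6) in the controls, and 18 (10.7 to 28.4) and 13 (6.92 to 22.2) with DcpS shRNA. The intervals cover counting error only, and that of control 2 overlaps those of both DcpS shRNA libraries. With control 1 left out, Ebf1 was not called (log2 fold change −0.91; limma, Benjamini-Hochberg adjusted p 0.336), and DESeq2 without its filter on low genes did not call it (−1.23, Benjamini-Hochberg adjusted p 0.332), a setting added after the data were seen.

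Ebf3 (chromosome 7, 137193673 to 137314445, minus strand) had counts of 136.8 and 134.3 in the controls against 171.7 and 169.9 with DcpS shRNA. The libraries of each group lay close together and the groups did not overlap. The mean was 136 ± 1.75 in the controls against 171 ± 1.31 with DcpS shRNA (SD, n = 2 per group). The log2 fold change of Ebf3 was 0.33 (SE 0.13), with 95% limits of 0.06 and 0.60. The unadjusted p of 0.0194 did not hold across all genes tested (limma, Benjamini-Hochberg adjusted p 0.163).

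Ebf2 (chromosome 14, 67233292 to 67430918, plus strand) had counts of 14.3 and 21.5 in the controls against 23.6 and 26.8 with DcpS shRNA. The groups did not overlap, but the controls were farther apart than control 2 and DcpS shRNA 1. The log2 fold change was 0.50 with wide 95% limits of −0.18 and 1.18 (limma, Benjamini-Hochberg adjusted p 0.446), from 15 to 26 reads a library. Among the members, 3 had groups apart with DcpS shRNA lower and 2 with DcpS shRNA higher. Among all genes tested 48.4% had groups that did not overlap, 24.0% lower and 24.4% higher.

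**Figure D3:**
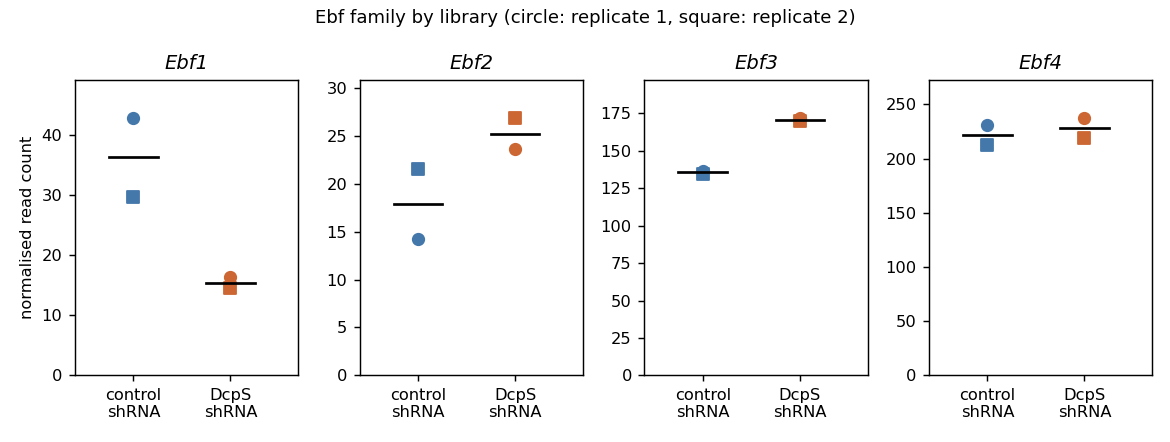
Normalised read counts of Ebf1, Ebf2, Ebf3 and the relative Ebf4 by group, from 0, with circles for replicate 1, squares for replicate 2 and lines for the group means. The mean of Ebf1 is 36.2 in the controls against 15.4 with DcpS shRNA, those of Ebf2 and Ebf3 are higher with DcpS shRNA, and the groups of Ebf4 overlap.

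The balance of Ebf1, Ebf2 and Ebf3 within a library is given as a description. It is built around Ebf1, the called member, so a lower share of Ebf1 with DcpS shRNA follows from that call. The reads of Ebf3 were 3.20 and 4.52 times those of Ebf1 in the controls against 10.5 and 11.7 times with DcpS shRNA. Ebf1 made up 22.1% and 16.02% of the summed Ebf1, Ebf2 and Ebf3 counts in the controls against 7.73% and 6.88% with DcpS shRNA. No p is given for this ratio, since for 2 libraries per group the smallest exact two-sided permutation p is 0.333. The summed count of Ebf1, Ebf2 and Ebf3 was 194 and 186 in the controls against 212 and 211 with DcpS shRNA. Ebf4, which had more reads than any of them in each library, is left out of the share and the sum. Ebf4, the remaining member of the family, had 230.9 and 212.3 in the controls against 237.1 and 219.0 with DcpS shRNA, and these overlapped (log2 fold change 0.04; limma, Benjamini-Hochberg adjusted p 0.897). Zfp423 and Zfp521, zinc finger proteins that bind Ebf factors, had log2 fold changes of 0.23 (limma, Benjamini-Hochberg adjusted p 0.0662) and −0.13 (0.308). Ebf4, Zfp423 and Zfp521 were singled out after their values were seen.

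The genes nearest to Ebf1 in pattern over the 4 libraries, by the Euclidean distance between centred log2 profiles, were Arsi, a sulfatase gene (distance 0.13), Rgs5, a G-protein regulator and pericyte marker (0.15), and the predicted gene Gm43835 (0.16). Rgs5 had 27.6 and 19.5 in the controls against 9.09 and 8.94 with DcpS shRNA (log2 fold change −1.27; limma, Benjamini-Hochberg adjusted p 0.0549). Its control 1 was the highest library and both DcpS shRNA values were below both controls, the order also seen for Ebf1. Rgs5 was picked by its nearness to Ebf1, so the shared order follows from that choice. A likeness over 4 libraries at these counts is a description only.

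Markers of cells that also express Ebf1 were read beside it. Of 8 tested pericyte and smooth muscle genes 2 were lower and 0 higher, with a median of −0.40: the platelet-derived growth factor receptor Pdgfrb (−0.72, SE 0.09) and the actin gene of smooth muscle, Acta2 (−1.93, SE 0.23), which also holds a word in its 3′ UTR. Pdgfrb had 506.4 and 534.3 in the controls against 328.9 and 304.0 with DcpS shRNA, without overlap. Notch3 (0.16), Vtn (0.10) and Cspg4 (−0.09), the most abundant genes of that list that were not called, had small differences. The summed count of its 11 genes was 1524 and 1513 in the controls against 1336 and 1264 with DcpS shRNA, and Des and Higd1b were at 0 in at least 1 library. Their part in the fall of Ebf1 was not tested. Of 9 tested markers of striatal projection neurons 0 were called by limma, and their list summed to 693 and 720 in the controls against 756 and 750 with DcpS shRNA. Their median was −0.10, with 5 below 0 and 4 above, and the 3 most abundant were Foxp2 (0.09), Ppp1r1b (0.27) and Drd1 (0.20).

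The meninges and blood vessels adjoin the marginal zone, and several of their markers were lower. Of 11 tested meningeal fibroblast genes 6 were lower and 0 higher, with a median of −0.47. They were the collagens Col3a1 (−0.77, SE 0.06), Col1a1 (−0.87, SE 0.06) and Col1a2 (−0.85, SE 0.07), the proteoglycans Dcn (−0.47, SE 0.10) and Lum (−0.37, SE 0.10), and the receptor Pdgfra (−0.63, SE 0.14). Ogn (0.00), Aldh1a2 (−0.60) and Foxc1 (−0.47) were not called. The list's summed count was 10665 and 11806 in the controls against 6729 and 6450 with DcpS shRNA, 58.7% of control, and most of it came from the collagens. The members summed to 93.7% of theirs, but that sum is mostly Reln (93.3%). These sums therefore do not compare cell types. Of 10 endothelial genes only 4 were tested, and the receptor Kdr was lower (−0.74, SE 0.18). Kdr lost the call when control 2 was left out, but its log2 fold change was still −0.56. Esam (−0.47), Pecam1 (0.93) and Cdh5 (−0.59) were not called at means under 20 counts, the list summed to 129 and 174 in the controls against 102 and 110 with DcpS shRNA, and Cldn5, Tek, Tie1 and Ly6c1 were at 0 in at least 1 library. The call of Lum ended without any of control 1, control 2 or DcpS shRNA 1 (limma, Benjamini-Hochberg adjusted p 0.0973 to 0.106).

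GABAergic interneuron genes, which share Reln, Calb2 and Ndnf with Cajal-Retzius cells, gave calls in both directions. Of 14 tested, the neuropeptide gene Npy was higher (1.13, SE 0.24), and the neuregulin receptor Erbb4 (−0.64, SE 0.17) and the transcription factor Maf (−0.54, SE 0.15) were lower. Npy had 21.9 and 27.7 in the controls against 55.4 and 54.8 with DcpS shRNA, and DESeq2 without its filter on low genes did not call it (Benjamini-Hochberg adjusted p 0.162). Nr2f2 (−0.08), Sp8 (0.21) and Gad1 (−0.55; limma, Benjamini-Hochberg adjusted p 0.0716) were not called. The list summed to 1369 and 1284 in the controls against 1210 and 1282 with DcpS shRNA, with no gene at 0. The call of Maf ended when control 1, control 2 or DcpS shRNA 1 was left out (limma, Benjamini-Hochberg adjusted p 0.0816 to 0.182), and that of Erbb4 without control 1, control 2 or DcpS shRNA 2 (0.0602 to 0.129).

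Other genes linked with early-born marginal zone neurons, some of them mainly of other cells, had a median of 0.05, with 1 of 11 higher and 1 lower. Nhlh2, a helix-loop-helix factor of young neurons, had 361.1 and 377.4 in the controls against 555.1 and 565.5 with DcpS shRNA. The groups were far apart compared with their spread, and Nhlh2 rose by 0.60 on the log2 scale (SE 0.08; limma, Benjamini-Hochberg adjusted p 0.000247). Cxcl12, the chemokine that the meninges release and that holds Cajal-Retzius cells at the surface, had 496.0 and 511.7 in the controls against 392.5 and 405.7 with DcpS shRNA. It fell by 0.34 (SE 0.08; limma, Benjamini-Hochberg adjusted p 0.0224). Cxcl12 lost the call when control 2 was left out, but its log2 fold change was still −0.31. Its receptor Cxcr4, singled out after its values were seen, had 221.4 and 216.4 in the controls against 258.9 and 236.9 with DcpS shRNA and was not called (0.18; limma, Benjamini-Hochberg adjusted p 0.416). The T-box factors Eomes (0.05) and Tbr1 (−0.03) and the cell cycle inhibitor Cdkn1a (0.17) were not called.

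Genes of the birthplaces and specification of Cajal-Retzius cells had a median of −0.02, with 2 of 22 lower and 1 higher. Wnt5a, a ligand of the cortical hem, had 263.2 and 300.5 in the controls against 197.2 and 186.6 with DcpS shRNA and fell (−0.55, SE 0.11; limma, Benjamini-Hochberg adjusted p 0.0072). Zic4, a zinc finger factor of the septum and hem whose 3′ UTR holds a word, had 169.1 and 163.1 in the controls against 110.8 and 126.3 with DcpS shRNA and fell (−0.49, SE 0.14; limma, Benjamini-Hochberg adjusted p 0.0466). That call ended without control 1, control 2 or DcpS shRNA 1 (limma, Benjamini-Hochberg adjusted p 0.083 to 0.151). Gli3, a transcription factor needed for the hem to form, had 1982 and 2193 in the controls against 2941 and 2550 with DcpS shRNA and rose (0.39, SE 0.07; limma, Benjamini-Hochberg adjusted p 0.0026). The homeodomain factors Lhx2 (−0.16), whose 3′ UTR holds a word, and Emx1 (0.05) were not called.

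**Figure D4:**
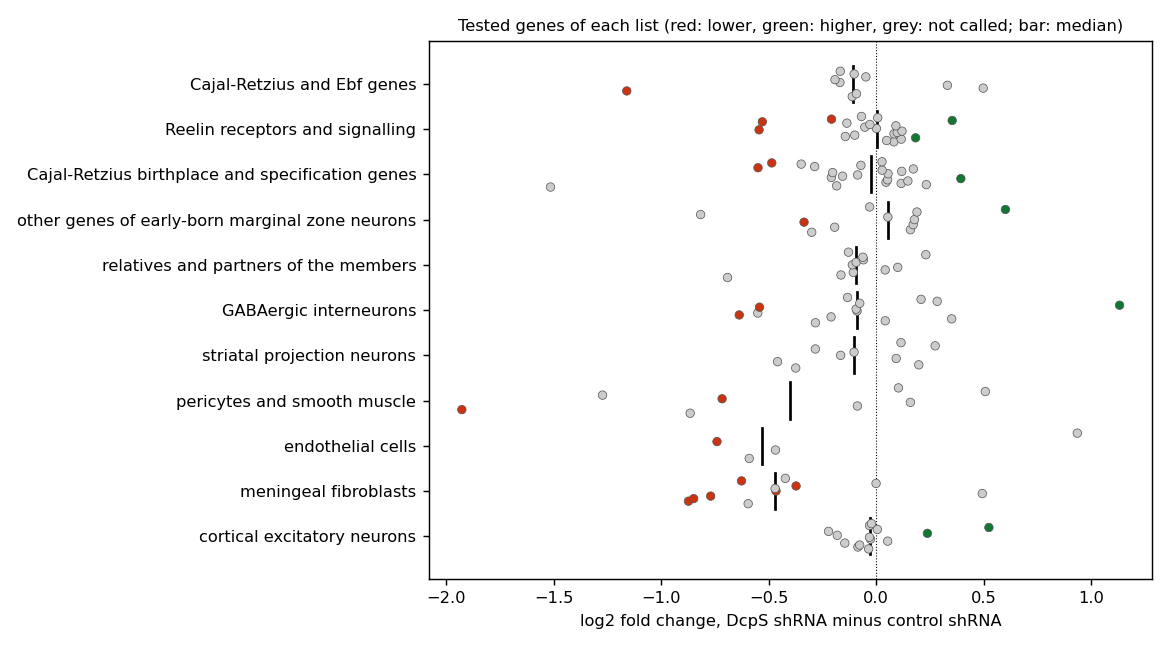
Log2 fold change of every tested gene of each list, 1 point a gene, red where lower, green where higher and grey where not called, with a vertical bar at the list's median. The median lies at −0.11 for the 10 Cajal-Retzius and Ebf genes, at 0.00 for the Reelin pathway and at −0.47 for meningeal fibroblast genes.

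Downstream of Reelin, 2 of 20 pathway genes were higher and 3 lower, with a median of 0.00. The receptors Vldlr (−0.07; limma, Benjamini-Hochberg adjusted p 0.550) and Lrp8 (−0.05; 0.674) and the adaptor Dab1 (−0.10; 0.322), which were singled out after their values were seen, did not pass. Vldlr had 2058 and 2101 in the controls against 2014 and 1952 with DcpS shRNA, Lrp8 6010 and 5733 against 5901 and 5423, and Dab1 5229 and 5033 against 4893 and 4683. The values of Lrp8 overlapped, and those of Vldlr and Dab1 were lower with DcpS shRNA by less than 10%.

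The called genes of the pathway lie further inside the cell or at its surface. The integrin subunit Itgb1 (−0.54, SE 0.05) and the phosphoinositide 3-kinase subunit Pik3r1 (−0.53, SE 0.06), whose 3′ UTR holds a word, fell. So did the exchange factor Rapgef1 (−0.21, SE 0.05), while its substrate, the small GTPase Rap1a (0.35, SE 0.06), and the adaptor Crk (0.18, SE 0.05) rose. Itgb1 had 3779 and 3931 in the controls against 2626 and 2659 with DcpS shRNA. The call of Crk ended with TMM scaling, both in edgeR (Benjamini-Hochberg adjusted p 0.0518) and in limma (0.0558). It held with edgeR on library totals (Benjamini-Hochberg adjusted p 0.0473) and with edgeR and a replicate block (0.0474). Leaving out control 1, control 2 or DcpS shRNA 2 also ended it, at log2 fold changes of 0.16 to 0.19. The call of Rapgef1 ended without control 1 (log2 fold change −0.16) or control 2 (−0.25). Mapt (0.09), Cfl1 (0.12) and Cdh2 (0.05), the most abundant genes of the list, were not called.

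Among 11 tested relatives and partners of the members 0 were called by limma, with a median of −0.09. The LIM-domain cofactors Ldb1 (0.10) and Ldb2 (−0.11) and the p53 gene Trp53 (−0.06) were the most abundant. Of the 14 genes listed for excitatory neurons, the vesicular transporter Slc17a7 (0.52, SE 0.06) and the general neuronal splicing factor Rbfox3 (0.24, SE 0.06) were higher and 0 were lower. Rbfox3 was not called when control 2 was left out (limma, Benjamini-Hochberg adjusted p 0.318). Dcx (−0.15), Map2 (−0.03) and Tubb3 (−0.02) were not called.

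**Figure D5:**
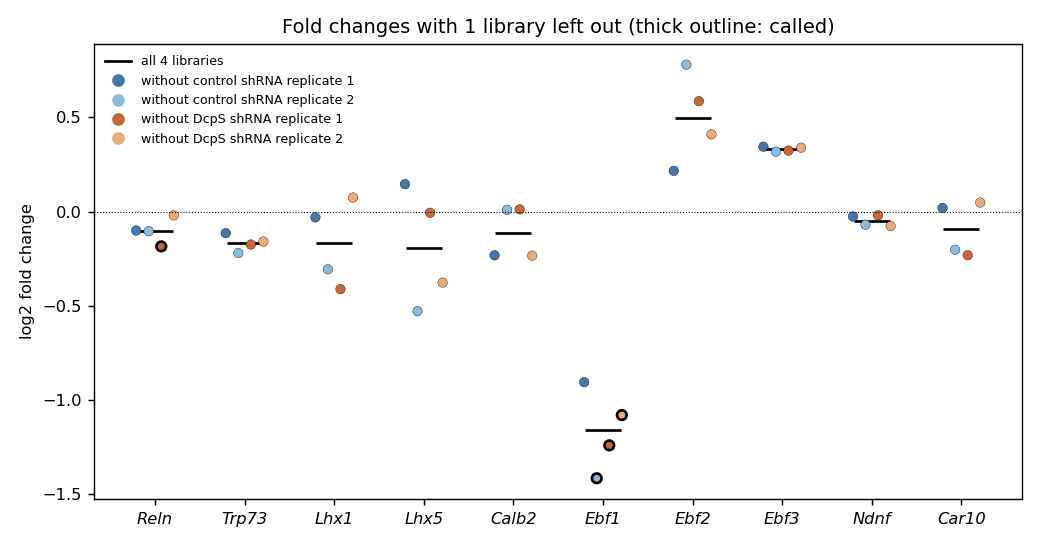
Log2 fold change of the 10 genes with all 4 libraries (black bars) and with each library left out in turn (coloured points, thick outline where called). Ebf1 stays below 0 at −1.41 to −0.91, Ebf2 and Ebf3 stay above 0, and Lhx1, Lhx5, Calb2 and Car10 cross 0.

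Leaving out each library in turn kept Ebf1 lower, and it was called in 3 of the 4 cases. Reln, Trp73 and Ndnf stayed below 0 and Ebf2 and Ebf3 above 0 in all 4 cases. Parts of 5 members overlap annotated antisense exons: Ebf2 with Gm10860 over 6.12% of its exon bases, Trp73 with Trp73os over 5.06%, Ebf3 with Gm45278 over 3.85%, Lhx5 with Gm27199 over 2.57% and Reln with Gm10475 over 1.04%. Reads there cannot be assigned to a gene where strand was not used, and the use of strand is not given in the sources used here. No exon of Ebf1 overlaps an annotated exon of another gene.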

How the data were processed

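Bulk RNA sequencing of 4 cultures was used, 2 per group, grouped by the sample titles. The deposited values are a signal that the authors scaled: divided by the lowest value above 0 in its column, 100% of values came out as whole reads (tolerance 0.001), with implied size factors of 0.895 to 1.10. The submitters' processing notes name HISAT2 2.2.0, SAMtools 1.3.1, Picard, featureCounts, DESeq2 and GRCm38. Annotation, strand and multi-mapping settings are not stated there. Scaling of this kind would hide a shift of all transcripts.

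Values (normalised read counts) were tested as log2(value + 1) with limma 3.58.1 (R 4.3.3; trend, robust, two-sided, group only), Benjamini-Hochberg adjusted over the 18110 genes kept by edgeR's filterByExpr (minimum count 10); all 10 members passed the filter. A count of 0 allows up to 3 reads, 2.73 to 3.35 normalised. The script was tested on simulated data. Alternatives were edgeR 4.0.16 and DESeq2 1.42.0 on recovered reads, other scalings, pseudocounts and filters, a replicate block, and leaving out each library. Lengths, positions and 3′ UTRs are from GENCODE M21 (GRCm38), matched by symbol.

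The members, lists and tests were chosen with earlier results of these data known. All members were named, with every called gene of the other lists, the 3 most abundant that were not called, and the 3 genes nearest in pattern to a called member. For 1 gene that this rule names, values are not reported here.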

Additional observations from a re-analysis of the deposited data

How the results depend on the processing

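The 1048 genes called became 453 with DESeq2 (422 without its filter on low genes, added after the data were seen) and 1626 with limma and the replicate block; they ranged from 747 to 1745 with a library left out, the highest without DcpS shRNA 1 (the lone library of a group is then assumed to vary like the other group). The member count of 1 became 0 with DESeq2, which gave 6 members but not Ebf1 an adjusted p (unadjusted p 0.0200), 0 without that filter, and 0 at a mean of at least 50, which removes Ebf1. It ranged from 0 (without control 1) to 2 (without DcpS shRNA 1, with Reln). The block left the member count at 1, with Ebf1 at an adjusted p of 0.0050 in limma and 0.0078 in edgeR. In limma the SE of Ebf1 was 0.309 with the block against 0.303 without it. The lower adjusted p there therefore does not come from a smaller error. Numbers in the titles are not said to mark a shared preparation, and deviations of same-numbered libraries correlated at 0.04 over 18110 genes. Over its alternatives with an adjusted p, that of Ebf1 ran from 0.0050 to 0.336.

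Of 141 alternative values of the members, 132 kept direction and side of the threshold and 6 changed sign, none of them called: Lhx5 and Car10 without control 1, Calb2 without control 2 or DcpS shRNA 1, and Lhx1 and Car10 without DcpS shRNA 2. Over the 4 libraries left out, the log2 fold change ran from −0.53 to 0.15 for Lhx5, −0.23 to 0.048 for Car10, −0.23 to 0.011 for Calb2 and −0.41 to 0.074 for Lhx1. The cause was not tested. Of 373 such values of Dcps and the 24 called genes of the other lists, 46 lost the call and 0 changed sign; DESeq2 did not call Wnt5a, Zic4, Cxcl12, Erbb4, Maf, Kdr, Dcn, Lum, Pdgfra, Rbfox3 or Crk, nor, without its filter, Npy or Rapgef1. Depth limits Ebf1, Ebf2, Lhx1, Lhx5 and Car10, each under 60 reads a library.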
